A study of Homo sapiens with 2 samples.

Results

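The regions described here are the accessible regions at divergent promoters of protein-coding genes in H1 human embryonic stem cells. A region belonged when a summit lay between the 5′ ends of a minus-strand and a plus-strand protein-coding gene that start head to head at most 1000 bp apart, or within 500 bp outside either end. Of 160327 regions in the list, 841 belonged (0.525%). They were found at 855 of 887 such pairs, which held 1710 of 20033 protein-coding genes (8.54%) and formed 824 separate loci. Regions at 10724 single-gene promoters served for comparison. These are promoters with no other protein-coding 5′ end within 2000 bp.

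In a divergent promoter, a stretch of DNA lies upstream of a gene on each strand, and polymerases leave it in opposite directions. Such pairs are common in the human genome. Many of their promoters are CpG islands without a TATA box, and many of their genes act in DNA repair, the cell cycle and mitochondria. The factors known to bind such promoters include the ETS-family factor GABPA, NRF1, NF-Y, which binds the CCAAT box, YY1 and ZNF143.

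Accessible chromatin was mapped by ATAC-seq, in which the transposase Tn5 cuts open DNA and leaves sequencing adapters there. H1 is an established pluripotent line. The 2 samples were thawed from frozen stocks, form 1 untreated group and share 1 peak list. It gives no value per library, so no value below has a replicate spread and no condition was compared. All 12 genes of a list of embryonic stem cell markers had a region at their outermost start, as had 69.5% of all protein-coding genes. At the canonical start 11 of the markers had one and POU5F1 had none. Of the 12 markers, 0 belonged to a pair.

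The sequence between the ends is shown for 5 pairs because the openings described below lie on these stretches. The first 4 are among the pairs of highest fold, and the fifth has the highest fold of the histone pairs and was added after its value was seen. All are from the plus strand of hg38, with the minus-strand gene to the left and the plus-strand gene to the right, and 0 of their bases lie in an annotated exon. Capitals mark exact matches, on either strand, to the motif strings searched below. The places are chr12:75390929-75391088 for CAPS2 and GLIPR1L2, chr5:65563169-65563235 for CENPK and PPWD1, and chr5:144170715-144170872 for YIPF5 and KCTD16. MRPL32 and the gene with the identifier ENSG00000256646 have chr7:42932215-42932375, and the histone genes H2BC12 and H2AC12 have chr6:27146856-27147105.
CAPS2/GLIPR1L2: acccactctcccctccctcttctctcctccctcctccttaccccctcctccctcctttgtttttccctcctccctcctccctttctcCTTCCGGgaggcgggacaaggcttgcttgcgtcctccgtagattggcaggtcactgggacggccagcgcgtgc
CENPK/PPWD1: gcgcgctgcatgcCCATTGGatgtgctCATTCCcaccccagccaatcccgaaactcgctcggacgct
YIPF5/KCTD16: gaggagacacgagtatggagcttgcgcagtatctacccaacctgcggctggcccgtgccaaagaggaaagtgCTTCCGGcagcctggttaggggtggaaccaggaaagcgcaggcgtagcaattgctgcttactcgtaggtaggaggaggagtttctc
ENSG00000256646/MRPL32: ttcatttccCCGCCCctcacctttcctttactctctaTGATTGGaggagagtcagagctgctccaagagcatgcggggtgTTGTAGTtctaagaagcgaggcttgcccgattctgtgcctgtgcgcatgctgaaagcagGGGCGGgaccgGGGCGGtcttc
H2BC12/H2AC12: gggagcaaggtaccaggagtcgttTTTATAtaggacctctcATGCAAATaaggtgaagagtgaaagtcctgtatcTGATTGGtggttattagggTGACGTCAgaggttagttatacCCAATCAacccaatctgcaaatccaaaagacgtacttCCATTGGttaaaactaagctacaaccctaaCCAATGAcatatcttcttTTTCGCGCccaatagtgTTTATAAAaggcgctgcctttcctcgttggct

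The strongest summit of the CAPS2 and GLIPR1L2 pair lay outside the printed stretch, 12 bp inside GLIPR1L2, with none of the searched motifs within 50 bp. That of the CENPK and PPWD1 pair lay at base 14 of the printed stretch, at the left end of its CCAAT box, which reads on the minus strand. That of the YIPF5 and KCTD16 pair lay at base 80, next to an ETS motif at bases 73 to 79. For MRPL32 the summit was at base 80, next to a ZNF143 motif at bases 81 to 87. The H2BC12 and H2AC12 stretch held 4 CCAAT boxes, 1 octamer, 1 CRE and a TATA string near either end, with the summit at base 121, inside a CCAAT box at bases 117 to 123.

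Nearly every divergent promoter was open. A region was found at 96.4% of pairs (855 of 887, 95% exact binomial interval 94.95% to 97.5%). By gene, 95.3% of the genes of pairs had a summit no farther than 500 bp from their own start (1630 of 1710, 94.2% to 96.3%), against 65.0% of 16008 single-gene promoters (64.3% to 65.8%). The share over all protein-coding genes was 69.5%. Both genes had such a summit in 837 pairs (94.4%), and in 18 pairs only 1 of the genes had one. Most ends of pairs lie less than 500 bp apart, so 1 summit can count for both genes. A gene of a pair can thus be counted through its partner's summit. Single-gene promoters have no such partner, and the gaps given here and below were not corrected for it.

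Part of this gap goes with CpG content, and part remained at equal CpG content. The CpG ratio is the number of CpG dinucleotides over the number that the C and G content would give. With single-gene promoters weighted to the CpG ratios of the genes of pairs, in steps of 0.1, their share was 89.9%, 5.45 percentage points below the genes of pairs. In 8 of 8 steps with at least 20 genes of either kind the share was higher for genes of pairs, and in 6 steps the intervals did not overlap. At ratios from 0.5 to 0.6 the shares were 90.8% of 87 genes of pairs (82.7% to 95.95%) and 68.9% of 1053 single-gene promoters (65.96% to 71.6%). At ratios from 0.8 to 0.9 they were 99.4% and 96.2%. The gap was 9.59 points with only the strongest summit of each region counted, 10.4 points with weaker summits left out and 17.7 points with weights on G+C content in place of the CpG ratio.

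**Figure D1:**
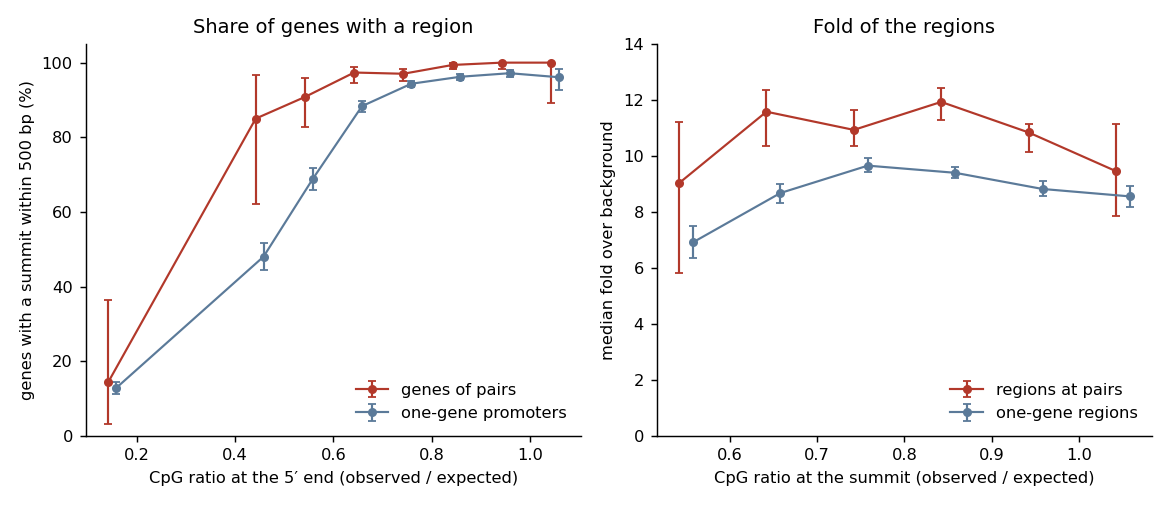
Left, percent of genes with a summit at most 500 bp from the 5′ end against the CpG ratio there, for genes of pairs (red) and single-gene promoters (blue, labelled one-gene), with 95% exact binomial intervals. Right, median fold of regions at pairs and at single-gene promoters against the CpG ratio at the summit, with 95% intervals of the median. Steps with fewer than 20 of either kind are left out, and in all steps shown the values at pairs lie higher.

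The openings at pairs were also stronger. The authors' fold, the enrichment of a summit over a background that the labels do not describe, had a median of 10.9 over the 841 regions (quartiles 8.16 and 13.3, interval of the median 10.55 to 11.2). Single-gene regions had a median of 8.67 as they stood and 9.05 when weighted to the same CpG ratios, a difference of 1.83. All regions of the list had a median of 5.38. A fold of 10 or more was reached by 489 regions at pairs (58.1%, 54.7% to 61.5%) and by 41.8% of single-gene regions after weighting, against 16.6% of all regions of the list. The median was higher at pairs in 6 of 6 CpG steps with at least 20 regions of either kind, with intervals apart in 4.

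Regions at pairs were less rich in G+C than single-gene regions of the same CpG ratio, with a median of 64.1% against 67.3% within 250 bp of the summit. With weights on the CpG ratio and G+C content together the difference in median fold was 1.14, and the gap in the share at a fold of 10 or more was 10.3 points in place of 16.4. Pairs that are also head to head at the canonical starts of both genes gave a difference of 2.23. The single-gene regions stayed at outermost ends in that comparison. With canonical starts used for pairs and single-gene promoters alike, the difference was 1.75. Width had a median of 1162 bp at pairs and 1133 bp at weighted single-gene regions, and the difference of 29 bp depended on the processing. It was 92 bp with weights on G+C content, 66 bp with both weights, 63 bp with only the strongest summit and 16 bp (−5 to 39 bp) with weaker summits left out. More than 1 summit was called in 725 regions at pairs (86.2%) and in 86.0% of weighted single-gene regions, against 30.7% of all regions.

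Single-gene promoters with a noncoding gene starting head to head within 1000 bp lay between the pairs and the other single-gene promoters in fold. Of 1505 such promoters 88.2% had a summit, against 62.6% of the 14503 without a noncoding partner, but weighted to the CpG ratios of the genes of pairs these shares were 91.2% and 89.6%, close to each other. The weighted median fold of their 1353 regions was 10.1, against 8.90 for the other 9371. A fold of 10 or more was reached by 50.9% and 40.4% of these after weighting, against 58.1% of regions at protein-coding pairs. These weights used the CpG ratio only. Regions with a noncoding partner then had a median G+C content of 67.1%, against 64.1% at pairs. No weights on G+C content were applied to them, so their place below pairs holds at like CpG ratio only.

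Most pairs shared 1 opening. The median distance between the ends was 132 bp (quartiles 69 and 248.5 bp), and 717 pairs (80.8%) started at most 300 bp apart. Weighted single-gene regions, at a median width of 1133 bp, were also wider than these distances. A region that holds both ends of a close pair therefore does not set pairs apart. In 796 of the 855 pairs with a region (93.1%, 91.2% to 94.7%) a single region held both 5′ ends, and 50 pairs (5.85%) had more than 1 region in the window. Both ends lay inside 1 region in 100% of 326 pairs up to 100 bp apart, in 94.2% at 200 to 300 bp, in 87.1% at 300 to 500 bp and in 48.6% of 72 pairs at 500 to 1000 bp, with the upper limit of each class included. The share with more than 1 region was 1.53% in the closest pairs and 26.4% in the farthest.

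Fold was lower at the most distant pairs. Its median was 11.3, 11.7, 11.2, 10.4 and 8.56 for pairs 0 to 100, 100 to 200, 200 to 300, 300 to 500 and 500 to 1000 bp apart. The interval of the median in the last class, 7.48 to 9.58, lay below those of the other classes, the nearest of which began at 9.77. Across the 855 pairs with a region, which share 1 list, Spearman's rho between distance and fold was −0.13. The median CpG ratio at the midpoint ranged from 0.783 to 0.800 in the first 4 classes and was 0.728 in the last, and its part in the lower fold was not tested.

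**Figure D2:**
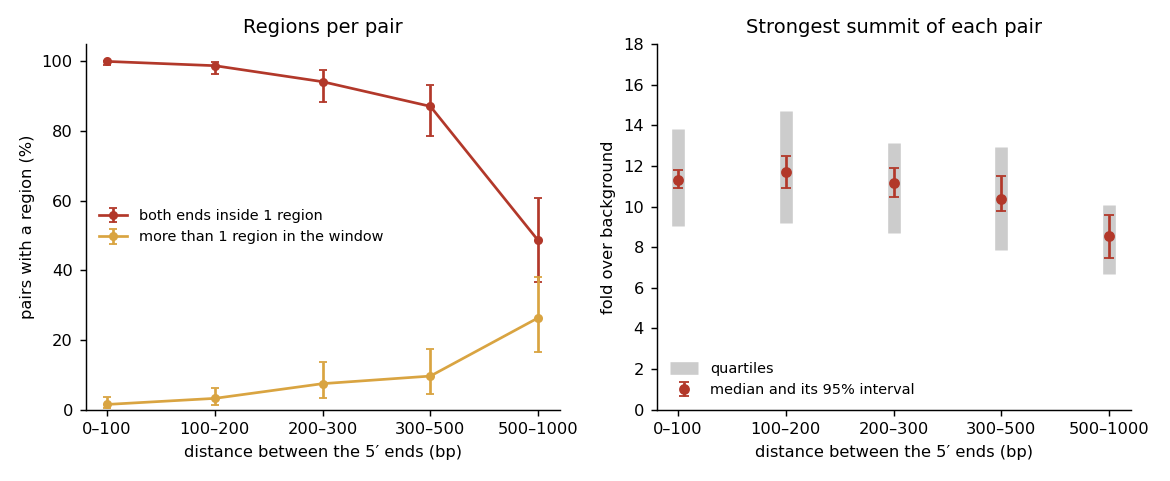
Left, percent of pairs with a region in which 1 region held both 5′ ends (red) or more than 1 region lay in the window (yellow), against the distance between the ends in bp, with 95% exact binomial intervals. Right, median fold of each pair's strongest summit with its 95% interval (red) and the quartiles (grey), from 11.3 at the closest pairs to 8.56 at the farthest.

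The strongest point of the opening tended to lie between the genes. The strongest summit fell between the ends in 553 of 855 pairs (64.7%, 61.4% to 67.9%), although this stretch made up 16.9% of the window searched. The share was 42.9% at 0 to 100 bp, where the stretch is 5.41% of the window, 75% at 100 to 200 bp, 85% at 200 to 300 bp, 83.9% at 300 to 500 bp and 69.4% at 500 to 1000 bp. With canonical starts in place of the outermost ends it was 83.3% over all pairs. Neither strand was favoured, with the summit nearer to the minus-strand gene in 433 pairs, nearer to the plus-strand gene in 420 and at equal distance in 2. At single-gene promoters 64.0% of strongest summits lay upstream of the 5′ end, at a median of −33 bp, and 51.2% lay 1 to 150 bp upstream. A place just upstream of a start is therefore not particular to pairs.

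Weaker summits flanked the strongest one inside the genes. In the 326 pairs up to 100 bp apart, 515 other summits were called, of which 0 lay within 100 bp of the strongest, 11 at 100 to 200 bp, 191 (37.1%) at 200 to 300 bp and 154 (29.9%) at 300 to 400 bp. Their median fold was 42.4% of that of the strongest. They lay on both sides in 124 pairs, on 1 side in 174, and 28 pairs had none. Neighbouring summits within a region were a median of 305 bp apart at pairs, 291 bp at single-gene promoters and 273 bp in the whole list, with a shortest gap of 43, 60 and 24 bp, so the spacing was close to that of the list as a whole.

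Ends that lie farther apart more often had separate summits, a count that the distance itself limits. Of pairs 0 to 100 bp apart, 96.6% had a summit within 150 bp of each end, mostly the same summit for both. In these pairs 0 of 515 other summits lay within 100 bp of the strongest. Separate summits within 150 bp of either end were found in 2.15% of pairs 0 to 100 bp apart, 6.97% at 100 to 200 bp, 28.3% at 200 to 300 bp, 54.8% at 300 to 500 bp and 48.6% at 500 to 1000 bp. Regions that held both ends reached a median of 500 bp into the minus-strand gene and 482 bp into the plus-strand gene (795 pairs whose strongest region held both). A weighted single-gene region reached a median of 656 bp into its gene and 433 bp upstream, so it reached farther into the gene. Which gene of a pair lies on the minus strand is arbitrary. The medians at pairs therefore cannot show whether each region was even.

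**Figure D3:**
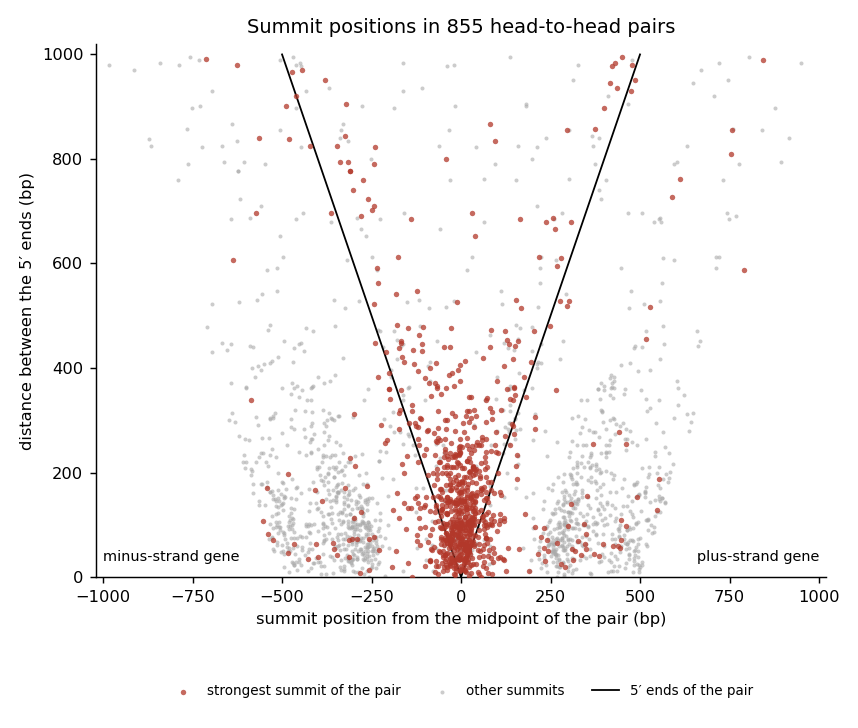
Position of every summit in the windows of 855 pairs, in bp from the midpoint between the 5′ ends (minus-strand gene to the left), against the distance between the ends in bp. Red points are the strongest summit of each pair, grey points the other summits, and the black lines mark the ends. Most red points lie between the lines, and below 200 bp the grey points lie to either side, mostly over 200 bp from the midpoint.

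Several promoter motifs were more frequent at the summits of pairs than at single-gene summits of like CpG ratio. Exact strings were searched on both strands within 50 bp of each region's strongest summit in the window. The ETS string CCGGAAG was found at 121 regions of pairs (14.4%, 12.1% to 16.9%) and at 8.14% of weighted single-gene regions. The CCAAT box, CCAAT followed by CA, GA, CG or GG, was found at 19.0% (16.4% to 21.8%) and 15.6%. YY1, as AAGATGG, was at 2.97% (1.93% to 4.36%) and 1.51%, and ZNF143, as ACTACAA, at 3.45% (2.32% to 4.92%) and 1.65%. For these 4 motifs the weighted single-gene share lay below the interval at pairs. With weights on the CpG ratio and G+C content together this was lost for the CCAAT box, whose excess was 2.25 points (−0.35 to 5.07).

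For other strings the single-gene share lay inside the interval at pairs. NRF1, as CGCATGCG, was at 2.62% (1.65% to 3.93%) and 1.67%. Its excess of 0.941 points was 1.92 (0.586 to 3.59) within 100 bp and 1.59 (0.422 to 3.10) at every summit. It was 1.00 (0.0336 to 2.32) with weights on G+C content and 0.619 (−0.351 to 1.94) with both weights. These intervals take the single-gene share as fixed, so a lower limit as near 0 as 0.0336 does not set the shares apart. ZBTB33 was found, as CTCGCGAG, at 1.43% and 0.829%. The CRE TGACGTCA stood at 1.90% and 1.60%, the E box CACGTG at 4.52% and 3.83%, and the X box GTTGCCA at 1.78% and 1.53%. TATAAA was rare at both, at 0.713% and 1.03%, against 2.57% of all regions. The AP-1 string TGANTCA was at 0.595% and 1.06% and the TEAD string GGAATG at 2.97% and 3.20%, against 4.5% and 11.0% of all regions. The E2F strings TTTGGCGC and TTTCGCGC were at 0.476% and 0.628%, and the octamer ATGCAAAT was at 0.951% and 0.593%.

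The GC box GGGCGG was the most frequent string and had no stable direction. It was found at 49.7% of regions at pairs and 53.4% of weighted single-gene regions, a difference of −3.65 points, but the difference was 2.59 points with weights on G+C content, 1.04 with both weights and 0.618 with every summit searched. At least 1 of ETS, NRF1, CCAAT box, YY1, ZNF143 and ZBTB33 was present at 39.8% of regions at pairs (36.5% to 43.2%) and 27.6% of weighted single-gene regions, and at least 2 of them at 3.92% (2.72% to 5.47%) and 1.73%. These 6 were grouped after their shares were known.

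Regions with an ETS or CCAAT string had higher median folds, although for ETS the intervals at pairs overlapped. The median was 12.2 in the 160 regions at pairs with a CCAAT box (11.3 to 12.8) and 10.55 in those without (10.1 to 10.9), and 11.9 in the 121 with an ETS string (10.9 to 12.8) and 10.7 in those without (10.4 to 11.1). The GC box went with no such difference at pairs, at 10.87 with and 10.91 without. At single-gene regions the medians were 11.2 with a CCAAT box and 8.15 without, and 10.8 with an ETS string and 8.44 without. There the GC box also went with a difference, at 9.14 with and 8.17 without. Every other string went with a higher median there except the TATA, octamer, AP-1 and TEAD strings. None of these medians was weighted for CpG ratio or G+C content.

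**Figure D4:**
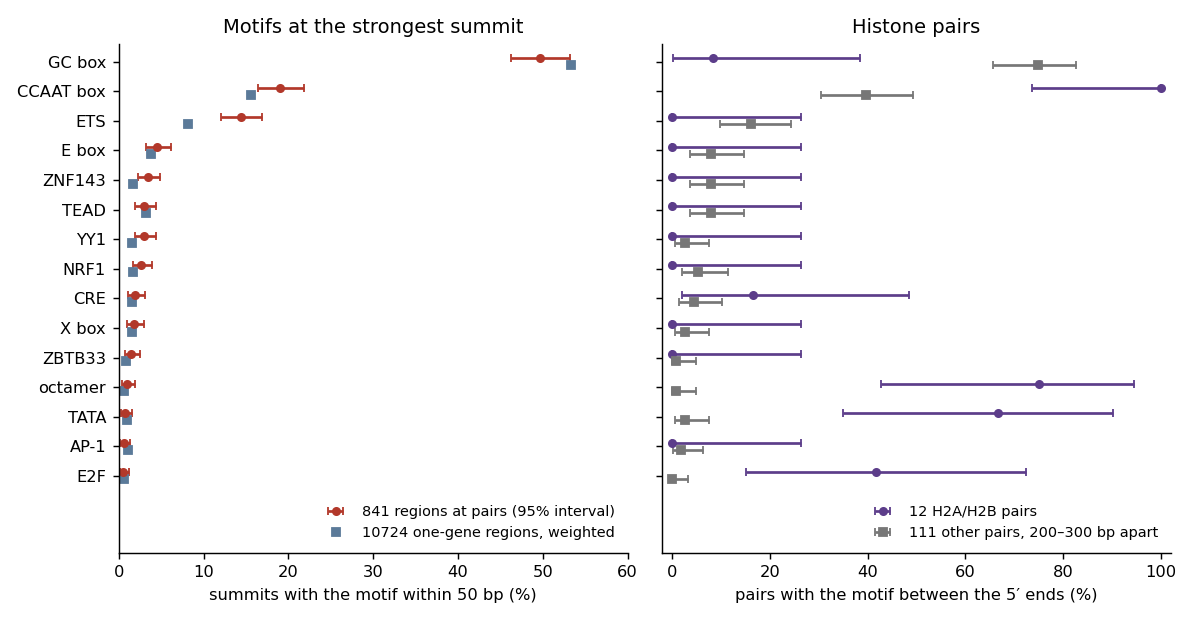
Left, percent of summits with each motif within 50 bp for 841 regions at pairs (red, with 95% exact binomial intervals) and 10724 single-gene regions weighted to the same CpG ratios (blue, labelled one-gene). Right, percent of pairs with the motif anywhere between the 5′ ends for 12 pairs of an H2A and an H2B gene (purple) and 111 other pairs 200 to 300 bp apart (grey). ETS stands at 14.4% and 8.14% on the left, and the octamer at 75% and 0.901% on the right.

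Histone, DNA repair and replication, mitochondrial, chaperone and cell cycle genes were in pairs more often than all protein-coding genes, and solute carriers, olfactory receptors and keratins less often, with intervals that left out the share of all genes. Replication-dependent histone genes had the highest share of the 16 groups, with 27 of 69 genes in pairs (39.1%, 27.6% to 51.6%), followed by DNA repair and replication genes with 43 of 144 (29.9%, 22.5% to 38.0%). Genes of the respiratory chain had 26 of 104 (25%), of the mitochondrial ribosome 17 of 78 (21.8%), chaperones 17 of 87 (19.5%) and cell cycle genes 16 of 103 (15.5%), against 8.54% of all protein-coding genes. Solute carriers had 10 of 368 (2.72%, 1.31% to 4.94%), olfactory receptors 3 of 415 (0.723%, 0.149% to 2.10%) and keratins and keratin-associated genes 1 of 152 (0.658%, 0.0167% to 3.61%). Cytosolic ribosomal protein genes (12.9%), proteasome genes (12.5%), TMEM genes (11.4%), aminoacyl-tRNA synthetases (10.5%), collagens (9.09%), zinc finger genes (37 of 577, 6.41%, 4.55% to 8.73%) and HOX genes (0 of 39, which allows up to 9.03%) had intervals that included the 8.54%. These shares describe the annotation, not the chromatin.

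**Figure D5:**
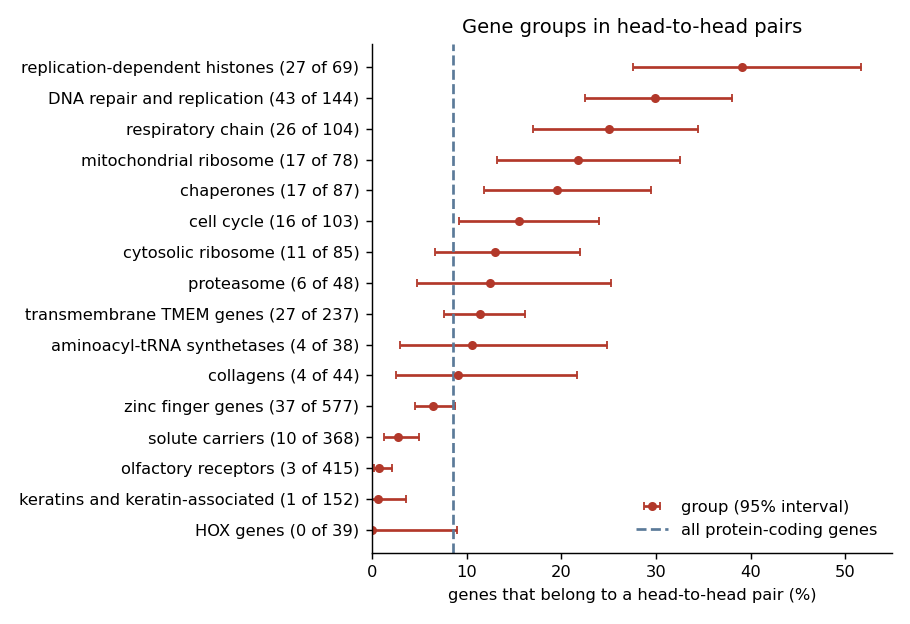
Percent of the genes of each of 16 groups that belong to a head-to-head pair, with 95% exact binomial intervals and the number of genes in brackets. The dashed line marks the 8.54% of all protein-coding genes, and histone, repair, respiratory chain, mitochondrial ribosome, chaperone and cell cycle genes lie to its right.

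The repair and replication pairs were open at 40 of 43 places, beside the 96.4% of all pairs, at a median fold of 12.1. The single-gene promoters of the same group had a median of 12.03, and the median over all pairs with a region was 11.1. RARS2 and ORC3, which encode the mitochondrial arginyl-tRNA synthetase and a subunit of the origin recognition complex, start 39 bp apart and shared a summit of fold 20.0. ERCC8, which acts in transcription-coupled repair, and NDUFAF2, an assembly factor of respiratory complex I, shared one of 19.8. The DNA helicase gene RECQL and the Golgi transport gene GOLT1B shared one of 17.8.

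Cell cycle pairs were open at 15 of 15 places, a share near the 96.4% of all pairs, at a median fold of 13.0, against 11.7 at single-gene promoters of the group. CENPK and CENPQ encode proteins of the inner kinetochore, where chromosomes attach to the spindle. CENPK shared its summit of 22.8 with PPWD1, a spliceosomal isomerase gene, and CENPQ shared one of 20.2 with MMUT, which encodes methylmalonyl-CoA mutase. NCAPG, a condensin subunit gene, shared one of 15.2 with DCAF16.

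Most pairs of the mitochondrial ribosome joined it to another kind of gene, and in 1 of its 18 pairs both genes belonged to it. PSMA2, a proteasome subunit gene, and MRPL32 of the mitochondrial ribosome shared a summit of 21.8, and MRPL47 and the complex I gene NDUFB5 shared one of 21.0. The 18 pairs with a mitochondrial ribosome gene were all open, beside the 96.4% of all pairs. Their median fold was 10.8, below the 11.8 of single-gene promoters of the group. Pairs also lay below single-gene promoters in fold among cytosolic ribosomal protein genes (9.39 against 10.2) and aminoacyl-tRNA synthetases (12.04 against 13.8, with only 4 pairs). They lay above among solute carriers (13.8 against 8.41), TMEM genes (10.8 against 7.95) and chaperones (12.2 against 10.2). In the other groups with open pairs they lay above by less. Of 27 pairs with a respiratory chain gene 26 were open, a share near the 96.4% of all pairs. The medians were 11.8 at pairs and 11.7 at single-gene promoters. ATP5MK, an ATP synthase subunit gene, and PDCD11 shared a summit of 18.5.

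The other groups held fewer or more mixed pairs. The 11 pairs with a cytosolic ribosomal protein gene were all open, beside the 96.4% of all pairs, at a median of 9.39. Among them, BTK and RPL36A had 17.2. BTK encodes a kinase of B cells, and its canonical start, 4605 bp from the outermost end, had no region. TRIM66 and RPL27A had 13.0, and VPS52 and RPS18 had 11.1. Chaperone pairs were led by DCDC1 and DNAJC24 (17.7) and by DNAJB9, a co-chaperone of the endoplasmic reticulum, which shared 15.99 with both PNPLA8 and THAP5. The canonical start of PNPLA8 lay 43531 bp from its outermost end.

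Zinc finger pairs were led by MRPL50 and ZNF189 (19.6), ZNF214 and NLRP14 (17.0) and MBD3L3 and ZNF557 (16.5). MBD3L3 had no region at its canonical start, 10989 bp from its outermost end. Solute carrier pairs were open at 10 of 10 places, beside the 96.4% of all pairs, at a median of 13.8. They were led by CYP39A1 and SLC25A27 (18.9), INTS14 and SLC24A1 (16.3) and FKBP15 and the copper transporter gene SLC31A1 (16.1). SLC24A1 had no region at its canonical start, 10572 bp from its outermost end. Among TMEM genes, DLG2 and TMEM126B had 20.0, TMEM39A and POGLUT1 15.7 and ELOC and TMEM70 14.2. None of these TMEM pairs is head to head within 1000 bp at the canonical starts. DLG2 had no summit within 500 bp of its canonical start. The canonical start of TMEM39A lay 5215 bp from its outermost end, and that of TMEM70 lay 3758 bp away with a fold of 2.455.

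Histone pairs had a promoter make-up of their own. Replication-dependent histone genes lie in clusters and are copied into RNA in S phase, and H2A and H2B genes often start back to back. The 12 H2A and H2B pairs start 170 to 251 bp apart, and 11 of them had a region, beside the 96.4% of all pairs. Their median fold was 9.11 (5.93 to 12.6). Only H2BC12 and H2AC12 (12.6), H2BC11 and H2AC11 (11.0) and H2AC25 and H2BC26 (10.6) reached a fold of 10. H2AC1 and H2BC1, the testis-specific pair, had no region.

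Between the ends, a CCAAT box lay in 12 of 12 H2A and H2B pairs (73.5% to 100%) and in 44 of 111 other pairs 200 to 300 bp apart (39.6%, 30.5% to 49.4%). The octamer, a known element of H2B promoters bound by OCT1, lay in 9 of 12 (75%, 42.8% to 94.5%) and in 1 of 111 (0.901%). A TATA string lay in 8 of 12 (66.7%, 34.9% to 90.1%) and in 3 of 111 (2.70%), and an E2F string in 5 of 12 (41.7%) and in 0 of 111, which allows up to 3.27%. The GC box lay in 1 of 12 (8.33%) and in 83 of 111 (74.8%), and the ETS string in 0 of 12, which allows up to 26.5%, and in 18 of 111 (16.2%). The closed pair H2AC1 and H2BC1 also held an octamer, a TATA string and 3 CCAAT boxes. The histone genes are near-identical copies and how reads that map to several places were handled is not given, so their folds are uncertain. As copies, the 12 pairs are also not independent, and the intervals of their motif shares cover counting error only. This set was chosen after its values were seen.

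Not every pair of high fold is head to head at the canonical starts. CAPS2 and GLIPR1L2 had 24.2, with the canonical start of CAPS2 60604 bp away. Other pairs of high fold were head to head at their canonical starts as well: TSPAN19 and LRRIQ1 with 23.5, and LRRIQ3 and FPGT, an enzyme gene of fucose metabolism, with 22.9. YIPF5 and KCTD16, genes of a Golgi membrane protein and of a GABA-B receptor subunit, had 21.9.

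In all, 556 of the 887 pairs were also pairs at the canonical starts. These had a region in 97.8% of pairs (544, 96.3% to 98.9%) and a median fold of 11.5. The other 331 had a region in 94.0% (90.8% to 96.3%) and a median of 10.2. Of 23 well-known divergent pairs, chosen from textbook knowledge, 12 met the rule and 17 were pairs at the canonical starts, of which 17 had a region. Those outside the rule have outermost ends that overlap or are not head to head within 1000 bp, as for HSPD1 and HSPE1, and BRCA2 and ZAR1L, which had folds of 11.1 and 11.6 at their canonical starts.

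The well-known pairs spanned a wide range of fold. The checkpoint kinase gene ATM and the histone gene activator NPAT start 406 bp apart and shared 1 region with 2 summits, the stronger at 13.2 and 200 bp from the NPAT end. TK1, the thymidine kinase of dividing cells, and AFMID had 13.5, and SARS2 and MRPS12, both of mitochondrial translation, had 13.2. PSMB1 and TBP, which encode a proteasome subunit and the TATA-binding protein, start 995 bp apart. They had 2 separate regions, with folds of 14.9 at the TBP end and 7.12 at PSMB1.

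Other well-known pairs lay lower. PREPL and CAMKMT had 11.65, UFD1 and the replication gene CDC45 10.9, PPAT and PAICS, both of purine synthesis, 9.56, and SIRT3 and PSMD13 9.45. PRKDC and MCM4, genes of a repair kinase and a replicative helicase subunit, had 6.97 at the outermost ends and 12.7 at the canonical starts. The type IV collagen pairs, which encode basement membrane chains, were among the weakest, with 7.34 at COL4A4 and COL4A3 and 4.98 at COL4A6 and COL4A5. At the canonical starts COL4A1 and COL4A2 had 5.81.

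A few pairs stood out by width or by number of summits. The widest regions lay at KCNG3 and MTA3 (2690 bp, fold 7.02), TRPC5 and RTL4 (2569 bp, 4.95) and KLLN with ENSG00000289051 (2542 bp, 6.31), so the widest were not the strongest. GNL1 and PRR3 had 7 summits in the window, and TBC1D16 with CCDC40 and UBQLN4 with LAMTOR2 had 6 each, with ends 760 to 984 bp apart.

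The pairs without a region had a lower median CpG ratio, and 21 of the 32 had a ratio under 0.5. Their median CpG ratio within 500 bp of the midpoint was 0.352, against 0.787 for pairs with a region, and none had part of a region between the ends. The highest ratio among the 32 was 0.823, at ATP5MJ and TDRD9. Of 38 pairs with a ratio under 0.5 a region was found at 17 (44.7%, 28.6% to 61.7%, median fold 7.03), and of the 849 others at 838 (98.7%, 97.7% to 99.4%, median fold 11.2). Many of the closed pairs are known from other tissues. DCST2 and DCST1, and PLCZ1 and CAPZA3, act in sperm, DUOX2 and DUOXA2 make hydrogen peroxide in the thyroid, and 3 pairs join a MAGEA gene and a CSAG gene, cancer-testis genes of the X chromosome. Of these 3 pairs, those with MAGEA2B and MAGEA2 both start 37 bp apart and have CpG ratios of 0.360 and 0.359. How reads that map to several places were handled is not given, so the lack of a region there is uncertain. OR11A1 and OR2H1 are olfactory receptor genes.

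Other closed pairs are head to head only at outermost ends. In 4 pairs both genes had a summit within 500 bp of their canonical starts, in 11 pairs 1 gene had, and in 17 neither had. BTBD18 and CTNND1 had 8.51 and 16.2 at their canonical starts, RHBDF1 and MPG 4.82 and 3.60, and WNT3 and WNT9B, genes of secreted signalling proteins, 5.07 and 8.64. ATP5MJ of the ATP synthase had 13.1 at its canonical start and its partner TDRD9, a germ line gene, had none. The same held for ANGEL1 (12.4) with LRRC74A, TRIM5 (9.51) with OR56A3, CIDEB (6.28) with LTB4R and RASL12 (3.25) with KBTBD13.

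Values just inside and just outside the limits of the rule overlapped. The pairs just inside 1000 bp were PSMB1 and TBP at 995 bp (fold 14.9), MS4A6A and MS4A4A at 991 bp (5.01) and APBA3 and MRPL54 at 990 bp (9.58). Just outside were TXNDC12 and BTF3L4 at 1008 bp (10.8) and ENSG00000268790 and TMEM38A at 1024 bp (13.5). Summits just inside the 500 bp margin had folds of 2.61, 8.91 and 3.44 at 495, 493 and 486 bp, and those just outside 3.37, 2.64 and 2.87 at 508, 511 and 538 bp.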

How the data were processed

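The build is GRCh38, per the submitters' processing notes. No source used here names the aligner, the peak caller, its filters or any pooling. The deposited list has 1 row per summit (236878 rows). Its fold is the authors' enrichment ratio over an undescribed background. The deposited −log10 p was used to filter summits in an alternative. The deposited score (the −log10 p times 10, capped at 1000, in all but 12 rows) was not analysed. The deposited summit offset, in the class other, gave positions. Library depths were not analysed here.

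Rows sharing a chromosome, a start and an end count as 1 region. Genes came from GENCODE release 44, at their outermost 5′ ends, and all 24 chromosomes matched the hg38 sequence. A region's fold is that of its strongest summit in the window. Single-gene values were weighted to the CpG steps of the pairs (250 bp to either side of summits, 500 bp at genes). Intervals are 95% exact binomial (Clopper-Pearson), with binomial order-statistic intervals for medians, and cover counting error only: nearby genes and shared regions are not independent. Intervals of differences take the weighted single-gene value as fixed and so leave out its error. With 1 group and 1 list no test over samples was possible, and none is given. Scripts were tested on simulated data.

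The members, groups, motifs and well-known pairs were chosen with earlier results of these data known. Pairs named were all 23 well-known ones, the 10 of highest fold, the first 10 without a region by chromosome and position, the 3 widest, the 3 with most summits, and the 3 of highest fold in each group with at least 10 pairs. Others were chosen after their values were seen. Some pairs under the rule are not reported here. Python 3.11.15, pandas 2.3.3, SciPy 1.17.1 and pysam 0.24.0 were used.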

Additional observations from a re-analysis of the deposited data

How the results depend on the processing

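Of 128 recomputed values, 90 stayed within the interval of the reported value or within 1.5 times a count, 35 moved and 3 changed sign. Those that changed sign were the GC box differences of 2.59, 0.618 and 1.04 points given above. The share of pairs with a region was 94.7% with only the strongest summit of each region, 97.9% at canonical starts and 97.8% for pairs that are also canonical pairs. The gap in the share of genes with a region was 9.59 points with the strongest summit, 7.29 with a margin of 250 bp, 10.4 with summits above the median −log10 p and 17.7 with weights on G+C content. The difference in median fold was 1.40 with the strongest summit and also where a region's overall strongest summit had to lie in the window. It was 1.43 with the stricter summits, 1.48 with overlapping 5′ ends added and 1.14 with weights on the CpG ratio and G+C content together. For canonical pairs it was 2.23 against single-gene regions at outermost ends. With canonical starts used on both sides it was 1.75. Both ends lay inside 1 region in 97.2% of pairs at most 500 bp apart, 85.8% with overlapping ends added and 96.1% of canonical pairs. The strongest summit lay between the ends in 68.4% with the margin of 250 bp, 83.3% at canonical starts and 52.0% with overlapping ends added. In no alternative run did the gaps in gene share or in median fold change sign. The 1 kb window around the midpoint, which gave a difference in fold of 1.94, both weights together and the restriction to canonical pairs were chosen after seeing the data. The difference in width lay between 16 and 92 bp, the CCAAT box excess between 2.25 and 7.78 points and the NRF1 excess between 0.619 and 1.92 points. The causes of these shifts were not tested.

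The list holds no value per library, so no result was recomputed without a replicate. Separate cultures are not stated for the samples. No paired analysis was possible because the samples form 1 group. Depth is unknown here, so no counting error of a single fold is given.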
